A study of Canis lupus familiaris with 8 samples.

Results

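The genes of oxidative phosphorylation were followed complex by complex in the anterior leaflet of the mitral valve, sampled from 8 dogs. Members were the genes whose array symbol began with NDUFA, NDUFB, NDUFC, NDUFS, NDUFV, SDHA to SDHD, UQCR, COX4 to COX8 or ATP5, each represented by its brightest probe set, the one with the highest mean log2 signal over all dogs before any floor was set. This gave 62 genes out of 6540 genes with a symbol of their own on the array, and they were measured by 113 probe sets. Of the 62, 29 belong to complex I, 3 to complex II, 6 to complex III, 7 to complex IV and 9 to complex V. The other 8 (NDUFAF1, NDUFAF2, NDUFAF5, NDUFAF6, NDUFAF7, SDHAF1, SDHAF2 and SDHAF4) share the opening letters but encode factors that help to assemble complexes I and II, so they were described apart. NDUFA4 was counted with complex IV, where its protein is now placed. 60 of the 62 were bright enough to be tested. No named probe set carried the symbol of a subunit encoded by mitochondrial DNA, which supplies further parts of complexes I, III, IV and V.

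4 dogs were controls, all beagle crosses, and 4 had degenerative mitral valve disease, in which the leaflets thicken and lose their shape. Affected 1 was a Lhasa apso, affected 3 was a Dachshund and both affected 2 and affected 4 were Miniature poodles, so that breed and disease cannot be told apart. No age, sex or drug treatment is given for the dogs, and all leaflets had been frozen before RNA was extracted. Each dog contributed 1 Affymetrix array, and the number of arrays limits the precision.

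Oxidative phosphorylation makes most of the ATP of a resting cell. Complex I takes electrons from NADH and complex II from succinate, complex III passes them to cytochrome c, complex IV hands them to oxygen, and complex V, the ATP synthase, uses the proton gradient that complexes I, III and IV build up. Heart muscle is among the tissues richest in these proteins, and muscle fibres of the left atrium run into the base of the anterior mitral leaflet. In a whole leaflet, fewer cells of a type and less RNA per cell cannot be told apart.

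Every array had been scaled to the same trimmed mean signal, 500.1, and the median signal ranged from 124 to 191. One library stood apart for the genes described here. Control 2 had the highest mean log2 signal of a list of 14 cardiac sarcomere genes (13.96, against 11.32 to 12.84 in the other controls and 10.24 to 13.46 in affected dogs). It also had the lowest mean of 7 valve interstitial cell and fibroblast genes (11.43, against 13.39 to 13.99 in the 7 other dogs) and of 13 macrophage genes (6.27, against 8.31 to 10.91). Its ratios of 3′ to 5′ signal, which rise as RNA integrity is lost, were the lowest of all. They were 0.28 for beta-actin (0.50 to 1.44 elsewhere) and 1.00 for GAPDH, close to the next (1.05 to 1.46 elsewhere). The highest ratios were those of affected 1 for both. For the members, complexes and gene lists, counts of lower or higher genes and medians are therefore given with and without control 2. So are the differences of named genes that it moved by over 1.5 times.

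With all 8 dogs, most members had lower signals in diseased leaflets, and with control 2 left out the median difference was close to 0. 55 of the 60 tested members were lower in affected dogs, where 50.5% of the 5437 tested genes were. The median log2 difference of the members, affected minus control, was -0.39, a signal 23.8% lower, beside -0.0055 over all tested genes. No member passed the threshold of 0.05 in limma after Benjamini-Hochberg adjustment over all 14705 tested probe sets, and the smallest adjusted p was 0.614. The share of all tested probe sets that passed was 0% in either direction. At an unadjusted p under 0.05, 3 members were lower and 0 higher, beside 3.92% and 4.82% of all tested genes. The 2 groups did not overlap for 3 members, all lower in affected dogs, where 2.37% of all tested genes were lower and 2.72% higher without overlap. At either mark 3 of the 60 members were lower and 0 higher, too few to be told apart from these backgrounds. The count of directions was far from its own background. The members share the RNA of the same 8 dogs and are not independent, so that count was given no test.

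Without control 2 the same fit gave a median of -0.089 over the members, and 39 of 60 were lower, where 51.0% of all tested genes were. 16 members thus turned from lower to higher and 0 the other way. No member passed then either (smallest adjusted p = 0.598 in limma), and 0 had an unadjusted p under 0.05, where 4.67% of all tested genes were lower at that mark. Control 2 was the highest of the 8 dogs for 51 of the 60 members, as it was for 21.6% of all tested genes. Its signal was a median of 2.63 times the mean of the other controls, from 0.626 times in COX4I1 to 5.64 times in NDUFAB1. Among the remaining dogs, affected 3 was the lowest of all 8 for 20 members, affected 1 for 15 and control 3 for 14.

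**Figure D1:**
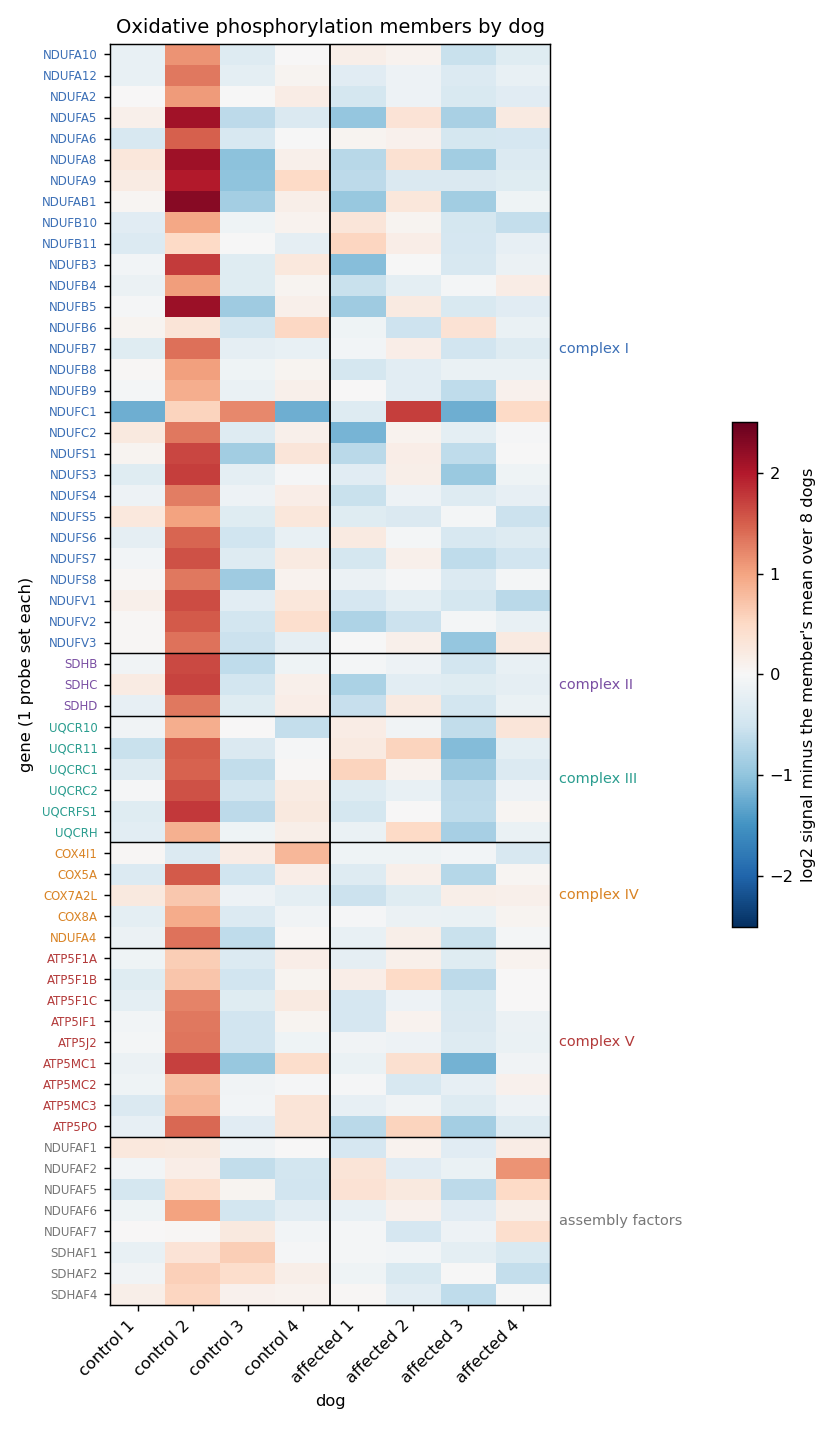
Log2 signal of each of the 60 tested members (rows, grouped by complex) in each dog (columns; the black line parts 4 controls from 4 affected dogs), as the difference from that member's mean over the 8 dogs, with red above and blue below the mean. The column of control 2 is the highest for 51 members, and the rows of assembly factors show the least of this.

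Complex I, the entry point for electrons from NADH, had the largest number of measured subunits. 27 of its 29 tested members were lower in affected dogs, with a median of -0.57. Without control 2, 21 of the 29 were lower and the median became -0.13. The core subunits that were measured, 6 of them, belong to the conserved part of the complex that holds the flavin, the iron-sulphur clusters and the quinone site. NDUFV1, which binds NADH and the flavin, had log2 signals of 11.15, 12.66, 10.77 and 11.32 in controls 1 to 4 and of 10.61, 10.79, 10.59 and 10.36 in affected dogs 1 to 4. The groups overlapped only through control 3, which lay just below affected 2. The difference was -0.89 ± 0.37 (log2, SE, 4 dogs per group; unadjusted p = 0.0378, limma adjusted p = 0.614), and it was -0.49 ± 0.23 without control 2.

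NDUFA2, an accessory subunit, had signals of 11.54, 12.61, 11.52 and 11.72 in controls and of 11.10, 11.40, 11.15 and 11.25 in affected dogs. All 4 affected dogs lay below all 4 controls. The difference was -0.62 ± 0.28 (unadjusted p = 0.0474, limma adjusted p = 0.633), and -0.37 ± 0.20 without control 2. NDUFB8, an accessory subunit of the membrane arm, was the other member of complex I whose groups did not overlap. Its signals were 12.86, 13.86, 12.72 and 12.90 in controls and 12.40, 12.57, 12.67 and 12.67 in affected dogs, and the lowest control was just above the highest affected dog. The difference was -0.51 ± 0.28, and -0.25 ± 0.20 without control 2. NDUFS5, an accessory subunit on the intermembrane side, had signals of 9.40, 10.15, 8.84 and 9.43 in controls and of 8.84, 8.77, 9.10 and 8.60 in affected dogs. Control 3 lay among the affected dogs. The difference was -0.63 ± 0.30 (unadjusted p = 0.0588, limma adjusted p = 0.653), and -0.40 ± 0.26 without control 2.

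The other core subunits of complex I were also lower on average, and none of them passed the test. NDUFV2, which carries an iron-sulphur cluster beside NDUFV1, had signals of 11.23, 12.74, 10.75 and 11.62 in controls and of 10.43, 10.65, 11.14 and 11.02 in affected dogs (difference -0.77 ± 0.39, and -0.39 without control 2). NDUFS1, which holds several of the clusters, had signals of 10.48, 12.09, 9.54 and 10.71 in controls and of 9.73, 10.58, 9.77 and 10.40 in affected dogs (difference -0.59 ± 0.47, and -0.13 without control 2). In both, control 2 was the highest and control 3 lay among or below the affected dogs. NDUFS7, which lies next to the quinone site, had signals of 11.81, 13.46, 11.56 and 12.11 in controls and of 11.44, 12.00, 11.24 and 11.40 in affected dogs (difference -0.71 ± 0.39, and -0.30 without control 2). NDUFS3 had signals of 11.30, 13.32, 11.34 and 11.57 in controls and of 11.31, 11.75, 10.67 and 11.49 in affected dogs (difference -0.57 ± 0.45). NDUFS8 had signals of 11.08, 12.36, 10.15 and 11.13 in controls and of 10.90, 11.003, 10.70 and 10.998 in affected dogs (difference -0.28 ± 0.40). Without control 2, NDUFS3 was at -0.096 and NDUFS8 at 0.11, so the latter turned.

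Accessory members of complex I covered a wide range. The difference was -0.84 ± 0.51 in NDUFA9, -0.82 ± 0.44 in NDUFB3 and -0.81 ± 0.59 in NDUFAB1, the acyl carrier protein of mitochondria, which also serves fatty acid and lipoic acid synthesis. Control 2 stood 4.22, 3.45 and 5.64 times above the mean of the other controls for these 3 genes. Their differences without it were -0.32, -0.37 and -0.19. At the other end, NDUFB11, a subunit of the membrane arm, was at 0.039 ± 0.28, and 0.21 without control 2, with signals of 12.75, 13.59, 13.08 and 12.86 in controls and of 13.62, 13.26, 12.66 and 12.89 in affected dogs. It was lower rather than higher under median centring, at -0.036. NDUFC1, a small membrane subunit, was at 0.35 ± 0.74, and 0.59 without control 2, and was dim: 2 controls and 1 affected dog lay at the floor of 5.10 (a signal of 34.2), below which values have no order. It was the only tested member with a dog at the floor.

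Complex II, succinate dehydrogenase, also serves the citric acid cycle. All 3 measured members were lower in affected dogs, with a median of -0.49. Without control 2, 2 of the 3 were lower and the median was -0.13. The flavoprotein subunit SDHA was not analysed here. SDHC, a membrane anchor, had signals of 11.69, 13.16, 11.02 and 11.61 in controls and of 10.68, 11.22, 11.18 and 11.25 in affected dogs. Control 3 lay among the affected dogs. The difference was -0.79 ± 0.41, and -0.36 ± 0.26 without control 2. The second anchor, SDHD, had signals of 11.88, 13.41, 11.78 and 12.26 in controls and of 11.52, 12.31, 11.64 and 11.92 in affected dogs (difference -0.49 ± 0.37, and -0.13 without control 2). The iron-sulphur subunit SDHB had signals of 11.16, 12.90, 10.62 and 11.15 in controls and of 11.20, 11.13, 10.80 and 11.07 in affected dogs. Its difference of -0.41 ± 0.43 rested on control 2, as it was 0.073 ± 0.23 without that dog.

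Complex III, the cytochrome bc1 complex, had all 6 members lower, with a median of -0.31. Without control 2, 3 of the 6 were lower and the median turned to 0.074. UQCRC2, one of the core proteins, had signals of 11.92, 13.53, 11.48 and 12.14 in controls and of 11.63, 11.75, 11.28 and 11.82 in affected dogs (difference -0.65 ± 0.40, and -0.23 without control 2). UQCRFS1, the Rieske iron-sulphur protein, had signals of 12.03, 14.10, 11.68 and 12.58 in controls and of 11.90, 12.35, 11.72 and 12.38 in affected dogs (difference -0.51 ± 0.47, and -0.012 without control 2). In UQCRC2 controls 1 and 4, and in UQCRFS1 control 4, lay above every affected dog, as control 2 did in both. UQCRC1, the other core protein, had signals of 11.13, 12.93, 10.84 and 11.49 in controls and of 12.01, 11.55, 10.57 and 11.12 in affected dogs (difference -0.29 ± 0.46, and 0.16 without control 2). UQCRH, the hinge protein, had signals of 12.54, 13.70, 12.69 and 12.94 in controls and of 12.64, 13.31, 11.97 and 12.64 in affected dogs (difference -0.33 ± 0.34, and -0.083 without control 2). Affected 3 was the lowest dog for both. UQCR11 and UQCR10, small subunits, were at -0.28 ± 0.49 and -0.12 ± 0.35, and both turned without control 2, to 0.18 and 0.17.

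Complex IV, cytochrome c oxidase, had all 5 tested members lower, with a median of -0.31. Without control 2, 2 of the 5 were lower and the median was 0.010. COX5A, a subunit on the matrix side, had signals of 12.26, 14.13, 12.10 and 12.77 in controls and of 12.27, 12.73, 11.90 and 12.66 in affected dogs (difference -0.43 ± 0.42, and 0.010 without control 2). COX8A, the ubiquitous form of the smallest subunit, had signals of 11.89, 13.05, 11.79 and 12.05 in controls and of 12.11, 11.99, 11.97 and 12.20 in affected dogs (difference -0.13 ± 0.29, and 0.15 without control 2). NDUFA4 was at -0.31 ± 0.39, and 0.089 without control 2. COX4I1, the ubiquitous form of a regulatory subunit, ran the other way in control 2, with signals of 8.33, 7.97, 8.49 and 9.13 in controls and of 8.19, 8.19, 8.24 and 7.90 in affected dogs. Control 2 was the lowest control here, at 0.626 times the mean of the others. Its difference of -0.35 ± 0.28 became -0.52 ± 0.28 without that dog, the lowest value of any member in that fit (limma adjusted p = 0.647). COX4I1 had 1 probe set, with signals from 239 to 559, while the other tested members of complex IV were at 866 or above. How well this probe set reports the transcript was not tested. COX7A2L, which helps complexes III and IV to associate, had signals of 10.54, 10.96, 10.18 and 10.06 in controls and of 9.76, 9.99, 10.45 and 10.42 in affected dogs (difference -0.28 ± 0.28, and -0.10 without control 2).

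The tissue-specific forms of complex IV were at or near the floor. COX6A2, the form of subunit 6A found in heart and skeletal muscle, was below the floor in all 8 dogs on its brightest probe set, with signals from 11.6 to 34.1, including the dogs with the highest sarcomere signals. On its other probe set only affected 1 was above the floor, at a log2 signal of 5.75. Whether these probe sets can detect the transcript was not tested, so the signals do not show that it is absent. COX4I2, the form of subunit 4 known from lung, had signals of 24.8, 63.3, 52.2 and 16.6 in controls and of 40.9, 175, 32.5 and 34.2 in affected dogs, and only affected 2 lay above the brightness that the filter asked for. Neither was tested. COX6A1, COX7A1, COX7A2 and COX8B were not analysed here.

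**Figure D2:**
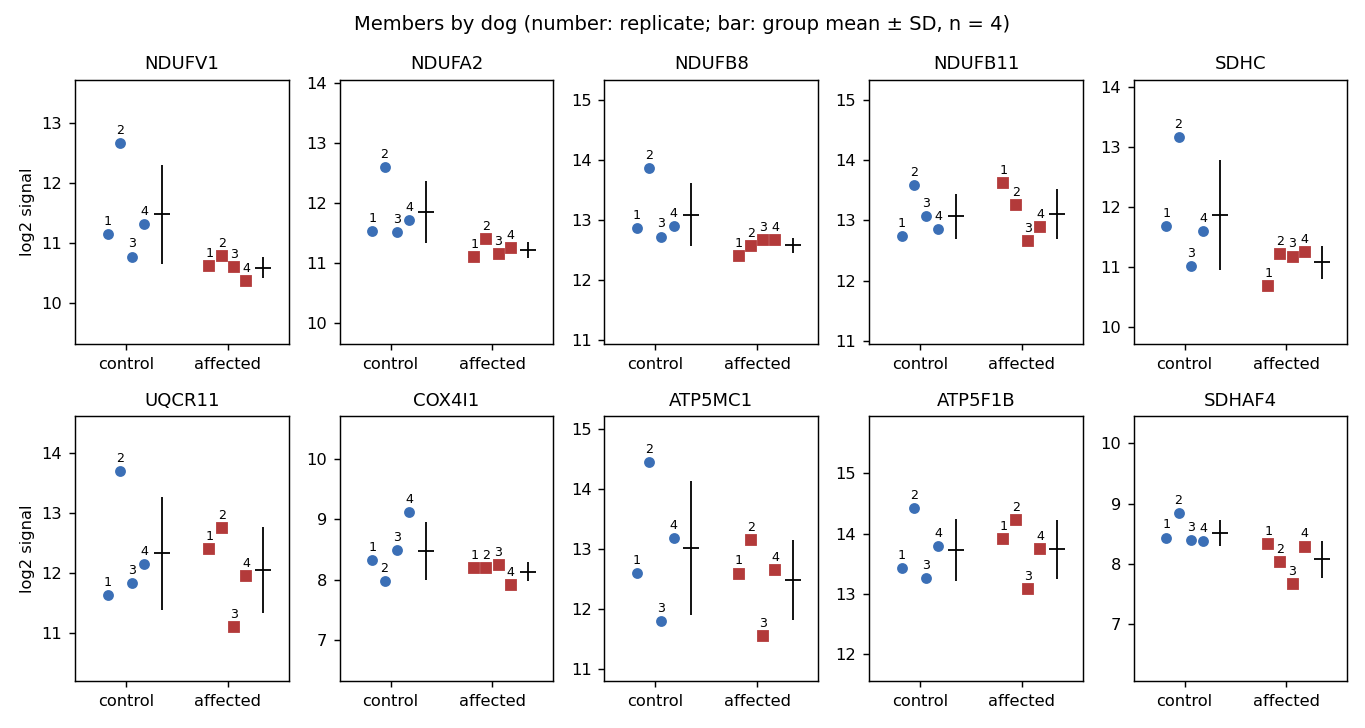
Log2 signal of 10 members in each control (blue circles) and affected dog (red squares), numbered by replicate, with the group mean ± SD (n = 4) as a black bar; every panel spans the same number of log2 units. Control 2 is the highest control in each panel except COX4I1, and the groups are apart only for NDUFA2, NDUFB8 and SDHAF4.

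Complex V, the ATP synthase, had 8 of 9 members lower, with a median of -0.38. Without control 2, 6 of the 9 were lower and the median was -0.049. ATP5F1A, the alpha subunit of the catalytic head, had signals of 13.52, 14.24, 13.29 and 13.80 in controls and of 13.41, 13.76, 13.33 and 13.73 in affected dogs (difference -0.16 ± 0.25, and 0.018 without control 2). ATP5F1B, the catalytic beta subunit, had signals of 13.43, 14.43, 13.26 and 13.80 in controls and of 13.91, 14.22, 13.07 and 13.74 in affected dogs, and its difference was 0.0072 ± 0.33, and 0.24 without control 2. It was lower rather than higher under quantile normalization (-0.11) and median centring (-0.068). The groups overlapped for both head subunits. ATP5F1C, the central stalk that turns inside the head, had signals of 12.16, 13.65, 12.11 and 12.63 in controls and of 11.99, 12.28, 12.02 and 12.42 in affected dogs (difference -0.46 ± 0.34, and -0.12 without control 2). ATP5PO, part of the outer stalk, had signals of 11.22, 12.87, 11.14 and 11.75 in controls and of 10.74, 11.98, 10.58 and 11.11 in affected dogs (difference -0.64 ± 0.43, the lowest value of the complex, and -0.27 without control 2). The inhibitor ATP5IF1, which stops the enzyme from running backwards, was at -0.42 ± 0.36 and the membrane subunit ATP5J2 at -0.36 ± 0.36. Without control 2, ATP5IF1 was at -0.049 and ATP5J2 turned to 0.034.

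The 3 genes of the c subunit, which forms the rotor ring and is the same mature protein whichever gene it comes from, varied by different amounts between dogs. ATP5MC1 had signals of 12.60, 14.45, 11.81 and 13.18 in controls and of 12.59, 13.15, 11.56 and 12.65 in affected dogs, a range of 2.89 log2 units over all dogs. ATP5MC2 ranged over 1.15 units and ATP5MC3 over 1.21. ATP5MC3 had signals of 13.03, 14.24, 13.32 and 13.70 in controls and of 13.18, 13.29, 13.05 and 13.25 in affected dogs. The differences between groups were -0.52 ± 0.53, -0.26 ± 0.26 and -0.38 ± 0.27 for ATP5MC1, ATP5MC2 and ATP5MC3. Without control 2 they were -0.040, -0.055 and -0.16. None of them passed, and whether the genes differ from each other was not tested.

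The 8 assembly factors differed less between control 2 and the other controls. 6 of them were lower, with a median of -0.16. Without control 2, 5 were lower, with a median of -0.14. Control 2 was the highest dog for 3 of the 8, at a median of 1.35 times the other controls. SDHAF2, which attaches the flavin to complex II, had signals of 10.63, 11.31, 11.17 and 10.88 in controls and of 10.61, 10.35, 10.72 and 10.13 in affected dogs. Only affected 3 lay above the lowest control. The difference was -0.55 ± 0.24 (unadjusted p = 0.0492, limma adjusted p = 0.636), and -0.44 ± 0.24 without control 2. SDHAF4, also a factor for complex II, had signals of 8.44, 8.84, 8.39 and 8.37 in controls and of 8.32, 8.02, 7.66 and 8.29 in affected dogs, with no overlap. The difference was -0.44 ± 0.25, and -0.33 ± 0.27 without control 2. SDHAF1, which helps to insert iron-sulphur clusters, had signals of 9.40, 9.92, 10.19 and 9.54 in controls and of 9.54, 9.52, 9.33 and 9.20 in affected dogs (difference -0.37 ± 0.25). NDUFAF2, a factor for complex I, was higher in affected dogs at 0.50 ± 0.35, led by affected 4 at 9.53. NDUFAF5 was higher on its brightest probe set, at 0.22 ± 0.32, or 0.39 without control 2. With all 8 dogs its other tested probe sets were lower.

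**Figure D3:**
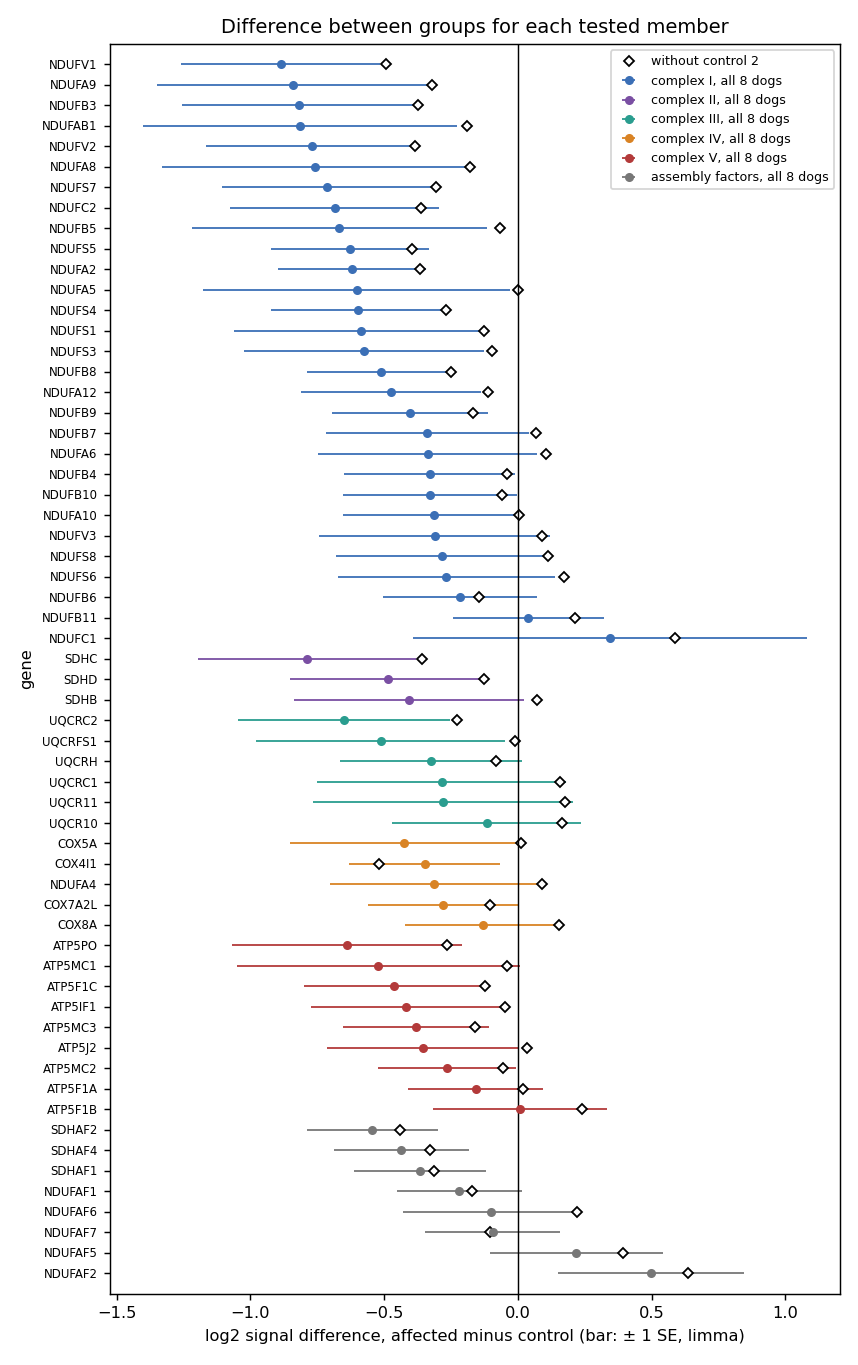
Difference in log2 signal, affected minus control, for each tested member, ordered within complexes; filled points with bars are the limma estimate ± 1 SE from all 8 dogs, and open diamonds are the estimate without control 2. 55 filled points lie left of 0, and the diamonds lie closer to 0 for most members, with a median of -0.089.

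Other probe sets of the same genes were read beside the brightest. 23 members had 35 further probe sets that were tested. Of these, 30 were lower in affected dogs, with a median of -0.46, and 26 had the same sign as the brightest one. They differed in size in ATP5F1A, where the brightest probe set was at -0.16 ± 0.25 and the others at -0.31 ± 0.34, -0.67 ± 0.45 and -0.79 ± 0.42, and without control 2 the latter 3 were at 0.025, -0.27 and -0.38. In NDUFB8 a second probe set, whose probes can also bind other transcripts, was at -1.19 ± 0.37, and -0.93 without control 2. A dimmer tested probe set of NDUFB8 was at -0.038 ± 0.36, and 0.13 without control 2. In NDUFV1 a second probe set was at -1.02 ± 0.47 (-0.55 without control 2) and another at 0.10 ± 0.26. ATP5IF1 had a dimmer probe set at 0.63 ± 0.32, against the direction of its brightest. In NDUFAF5 the brightest probe set was at 0.22 ± 0.32 and the others at -0.34 ± 0.32, -0.52 ± 0.35 and -0.052 ± 0.38. Without control 2 those others were at -0.088, -0.31 and 0.28. The dimmer probe set of NDUFB11 was at -0.082 ± 0.27 (0.076 without control 2), where its brightest was at 0.039. Of the 62 brightest probe sets, 22 can bind several transcripts of a gene family and 2 can bind other sequences, by the suffix of their names.

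The order of the dogs was compared with that of the sarcomere transcripts. In the controls, the order of the sarcomere list was control 2, 4, 1 and 3, and the mean log2 signals of complexes I, II, III, IV and V each had that same order. In the affected dogs, where the sarcomere list ran affected 2, 1, 4 and 3, only complex III had that order. Complexes I and V ran affected 2, 4, 1 and 3, complex II ran 2, 4, 3 and 1, and complex IV ran 4, 2, 1 and 3. The mean of the complex III members was 11.26, 12.88, 11.15 and 11.52 in controls and 11.53, 11.67, 10.74 and 11.44 in affected dogs. The mean of the complex I members was 10.92, 12.39, 10.64 and 11.07 in controls and 10.63, 11.04, 10.54 and 10.83 in affected dogs. The 8 assembly factors did not keep the order, with control 3 second among controls at 9.43. A wider list of 22 assembly factors, described below, did keep it in controls, at 9.36, 10.06, 9.33 and 9.43. Glycolysis genes kept it too (10.79, 11.35, 10.48 and 10.91). So did the lists of electron carriers, of the citric acid cycle and of import, while that of regulators of mitochondrial genes did not. The order in controls was thus not particular to the complexes.

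A limma fit with the group and the mean log2 signal of the sarcomere list as terms put a number on this. The slope, in log2 signal per log2 unit of the sarcomere list, was positive for 56 of 60 members, where 50.4% of all tested genes had a positive slope. Its median was 0.31 over the members and 0.0021 over all tested genes. 3 members passed on this term after adjustment over all probe sets, beside 1.66% of all tested genes: ATP5MC1 (slope 0.70 ± 0.11, limma adjusted p = 0.0153), UQCR11 (0.61 ± 0.12, limma adjusted p = 0.0381) and ATP5F1B (0.40 ± 0.082, limma adjusted p = 0.0433). The count was 0 without control 2 (0.754% of all tested genes) or without control 3, 2 without control 4 or affected 1, 1 without control 1, affected 2 or affected 4, and 4 without affected 3. Without control 2 the slope was positive for 50 of 60 members, where 51.9% of all tested genes had one, with a median of 0.16. The 4 members with a negative slope were COX4I1 (-0.063 ± 0.13), NDUFB6 (-0.031 ± 0.14), NDUFAF7 (-0.069 ± 0.12) and SDHAF2 (-0.025 ± 0.11), and none of these passed.

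UQCR11, whose protein is among the smallest of complex III, was 1 of the 3 members that passed on the sarcomere term. Its signals were 11.63, 13.70, 11.83 and 12.16 in controls and 12.41, 12.74, 11.11 and 11.94 in affected dogs. The highest were control 2 and affected 2 and the lowest affected 3, which were also the first, second and last for the sarcomere list. A dimmer probe set of UQCR11 kept the sarcomere order in controls but not in affected dogs. On that probe set affected 3 was the highest affected dog, at 7.72, and affected 2 was at 6.83. With the sarcomere term in the fit, the median difference between the groups over the 60 members was -0.26, 52 of 60 were lower (49.8% of all tested genes), and 0 passed, with a smallest adjusted p of 0.430 in limma. 1 member, NDUFV1 at -0.73, had an unadjusted p under 0.05, where 5.65% of all tested genes were lower at that mark. Of the 18 sarcomere genes listed, 14 were tested and 13 of these were lower in affected dogs, with a median of -0.53. Without control 2, 9 of the 14 were lower, with a median of -0.062. The 3 with the smallest p were MYOZ2 (-1.16 ± 0.64), ACTN2 (-1.09 ± 0.89) and MYH7 (-0.65 ± 0.69). Without control 2 these 3 were at -0.64, -0.35 and -0.27. The summed signal of the 14 genes ranged from 57264 to 290611 in controls and from 28988 to 233670 in affected dogs. The part of muscle content in the members' difference was not tested beyond this fit.

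**Figure D4:**
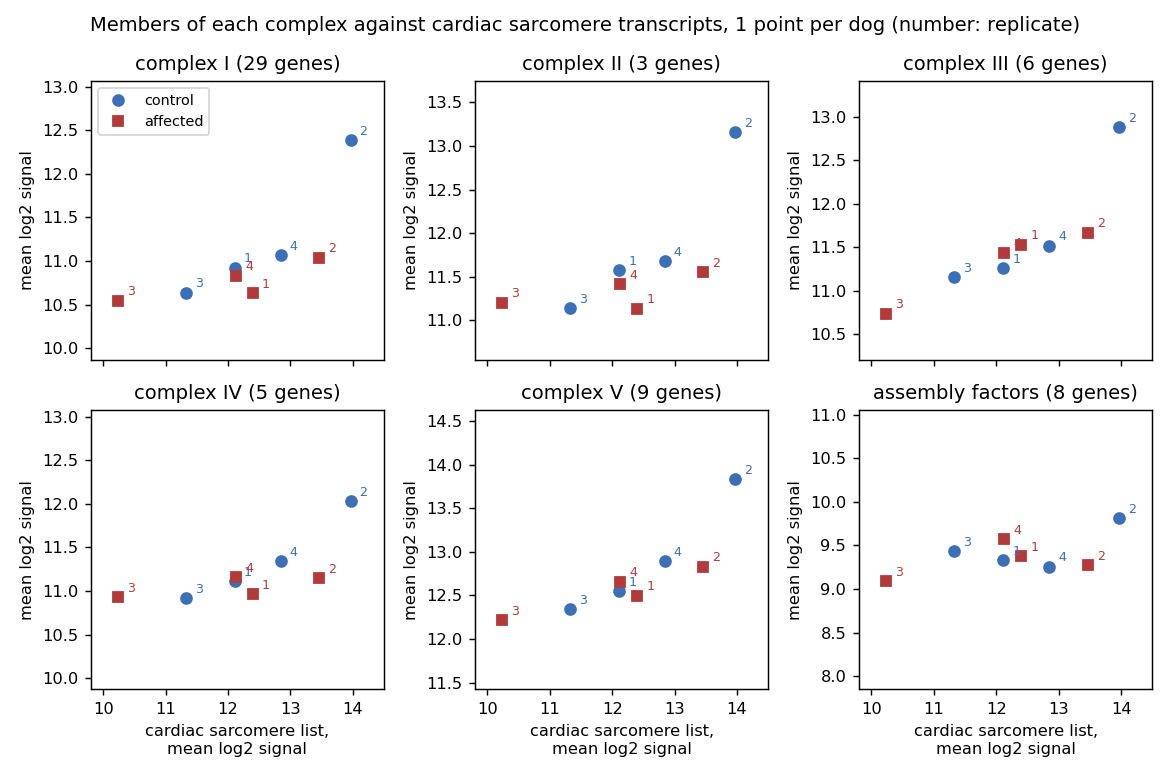
Mean log2 signal of the tested members of each complex, and of the assembly factors, against the mean log2 signal of 14 cardiac sarcomere genes, with 1 point per dog (blue circles, 4 controls; red squares, 4 affected dogs; number, replicate); every panel spans the same number of log2 units upward. Control 2 is the highest point in every panel, and affected 3 has the lowest sarcomere level, 10.24.

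Other genes of mitochondrial energy metabolism were taken from lists. Of 13 tested genes of electron carriers and coenzyme Q synthesis, 11 were lower in affected dogs and 0 passed, with a median of -0.45. Without control 2, 8 were lower, with a median of -0.014. The monooxygenase COQ6 had no overlap between groups, at -0.68 ± 0.36, COQ7 was at -1.05 ± 0.54 and COQ8B, higher in every affected dog than in every control, at 0.41 ± 0.22. Without control 2, COQ6 was at -0.33 and COQ7 at -0.60. Of 14 genes of the citric acid cycle and pyruvate dehydrogenase, 13 were lower and 0 passed, with a median of -0.62. Without control 2, 9 were lower, with a median of -0.13. SUCLG2, a subunit of succinyl-CoA ligase, had signals of 10.26, 10.68, 10.13 and 10.47 in controls and of 9.53, 9.22, 9.96 and 9.93 in affected dogs. The groups did not overlap, and the difference was -0.72 ± 0.25 (unadjusted p = 0.0166, limma adjusted p = 0.549) and -0.62 without control 2, against an SE of 0.26 in that fit. PDHB, of pyruvate dehydrogenase, was at -0.83 ± 0.34 and IDH3B, of isocitrate dehydrogenase, at -0.96 ± 0.52, and without control 2 at -0.51 and -0.41.

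Further lists covered assembly, transport and regulation. Of 22 tested genes in a wider list of assembly factors, which holds the 8 above, 18 were lower, with a median of -0.34. Without control 2, 16 were lower, with a median of -0.16. COA5 and COA6, factors for complex IV, were at -0.59 ± 0.25 and -0.77 ± 0.36, and without control 2 both were at -0.41. Of 18 genes of import, carriers and cristae, 11 were lower, with a median of -0.020, while without control 2 the median was 0.21 and 14 were higher. VDAC3, a channel of the outer membrane, was at -0.40 ± 0.27, the chaperonin HSPE1 at -0.53 ± 0.38 and the ADP/ATP carrier SLC25A4 at -0.70 ± 0.51, and without control 2 these were at -0.15, -0.19 and -0.22. TOMM70, an import receptor, had no overlap between groups and was higher, at 0.22 ± 0.20. Of 10 regulators of mitochondrial genes, 4 were lower, with a median of 0.081. Without control 2, 3 were lower, with a median of 0.054. GABPA, a factor that binds promoters of respiratory genes, was at -0.47 ± 0.29. PPARA was at -0.51 ± 0.33 (-0.24 without control 2), while PPRC1 was at 0.42 ± 0.28. In each of these lists 0 genes passed.

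Glycolysis had more genes higher than lower. 11 of its 16 tested genes were higher in diseased leaflets, with a median of 0.12, and 0 passed. Without control 2, 13 were higher, with a median of 0.40. ENO1, an enolase, had signals of 12.38, 12.60, 11.91 and 12.14 in controls and of 12.64, 12.72, 13.09 and 13.09 in affected dogs, with no overlap. Its difference was 0.63 ± 0.23 (unadjusted p = 0.0221, limma adjusted p = 0.577), and 0.74 without control 2. The glucose transporter SLC2A1 was at 0.84 ± 0.32 and PFKFB3, which makes the activator of phosphofructokinase, at 0.80 ± 0.37, which was 0.45 without control 2. With or without control 2, 13 of 13 macrophage genes were higher, with a median of 1.93 (1.17 without it). The same held for 6 of 6 endothelial genes, with a median of 1.003 (0.92 without it). Of the smooth muscle genes, 5 of 5 were also higher in both fits, with a median of 0.48 (0.80 without it). These sets of genes moved the same way as ENO1, SLC2A1 and PFKFB3. Their part in it was not tested. Whether glycolysis and respiratory genes differ from each other was not tested either.

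**Figure D5:**
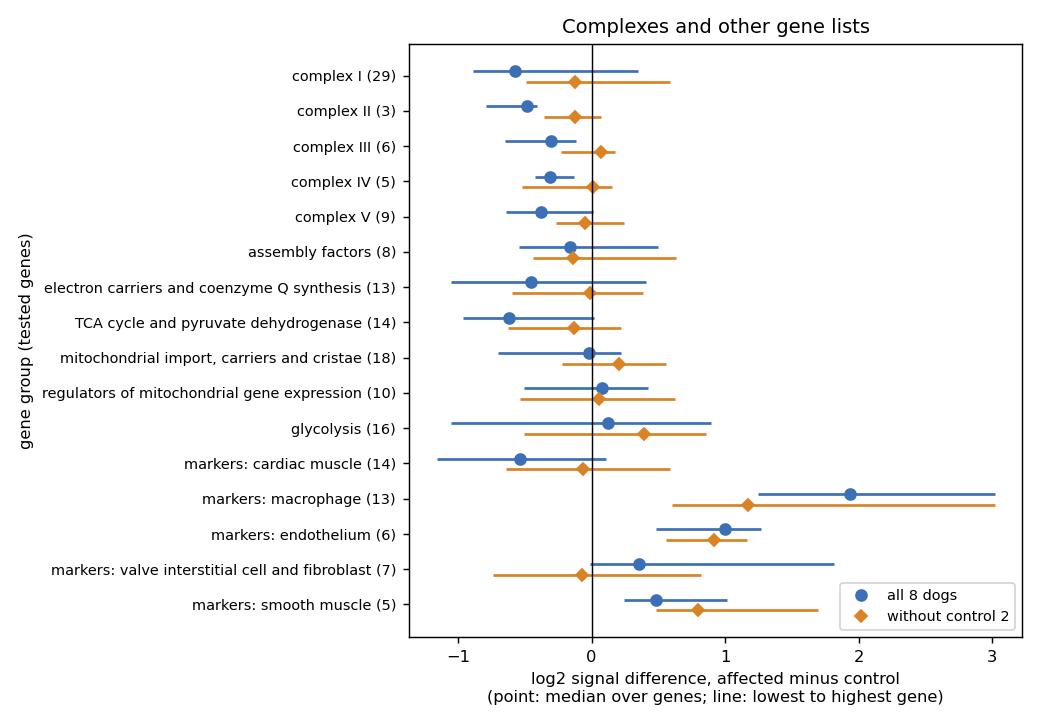
Median log2 difference, affected minus control, over the tested genes of each complex and list (points), with the lowest and highest gene as the ends of each line, for all 8 dogs (blue) and without control 2 (orange); the number of genes is in brackets. The medians of complexes I to V lie between -0.57 and -0.31 with all dogs and between -0.13 and 0.074 without control 2. Those of macrophage, endothelial, smooth muscle and glycolysis genes and of regulators of mitochondrial gene expression stay above 0.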

How the data were processed

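RNA of 8 leaflets, 4 from controls and 4 from affected dogs, was measured on 1 array per dog. The authors deposited 1 linear intensity per probe set; MAS5 is the tool that the submitters' processing notes name, and its version is not given in the sources used. Gene symbols came from the platform annotation, and the 10549 of 23913 probe sets with a single symbol were named. 60 of the 62 member gene identifiers matched RefSeq genes (UU_Cfam_GSD_1.0).

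Signals were brought to a common trimmed mean, floored at the 20th percentile of all signals (34.2) and taken to log2. Probe sets above the 40th percentile of the array on 4 or more of 8 arrays were tested. The groups were compared in limma 3.58.1 (R 4.3.3) by lmFit and trended eBayes; p-values are two-sided, adjusted by Benjamini-Hochberg over 14705 probe sets. Errors after ± are limma standard errors unless marked SD. Background shares count the brightest probe set of each of 5437 tested genes.

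The members and lists were chosen with earlier results of these data known. Values of all dogs are given for the 3 members of each complex with the smallest p, the tissue forms of complex IV and the core subunits, called catalytic in the lists; differences are given for members that were higher or did not overlap, and for the 3 genes with the smallest p of each other list. Further named members, such as UQCR11, ATP5MC1, NDUFA9 and NDUFAB1, and TOMM70 of the import list, were chosen after their values were seen. The fit was tested on simulated data for this comparison: with 200 of 14705 probe sets changed, 0.05% were recovered for a log2 change of 1, 64.8% for 2 and 95.2% for 4. Alternatives were other normalizations, filters, floors and variance models, weighted arrays, a replicate block, the sarcomere list as a covariate, the mean over probe sets, and leaving out each dog.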

Additional observations from a re-analysis of the deposited data

Results flagged for a closer look

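Among the 32 members named by rule, their complex means and 3 marker lists, 84 groups of 4 dogs were examined for a dog far from the others, by the gap to its nearest neighbour as a share of the group's range; chance alone flags about 1 in 20. 5 groups were past Dixon's 95% limit for 4 samples. Control 2 was far above the other controls for NDUFS3 (0.866), SDHAF4 (0.862) and NDUFB8 (0.844). Affected 1 was far below the other affected dogs for SDHC (0.881), and affected 4 for COX4I1 (0.847).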

How the results depend on the processing

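No member passed in any of the 22 alternatives, and between 0 and 12 had an unadjusted p under 0.05, and the direction held in all of them for 22 of the 32 members named by rule. Leaving out each dog in turn, the count of lower members ranged from 39 (without control 2) to 58. The median over all members ranged from -0.56 to -0.089, over complex I from -0.73 to -0.13, complex II from -0.69 to -0.13, complex III from -0.53 to 0.074, complex IV from -0.40 to 0.010, complex V from -0.57 to -0.049 and assembly factors from -0.28 to -0.10, with the value nearest 0 or above it without control 2 for each complex. Members passing on the sarcomere term, a fit chosen after seeing the data, ranged from 0 to 4. Of the members named by rule, those that turned when a dog was left out ranged from -0.16 to 0.24 (ATP5F1B), -0.13 to 0.21 (NDUFB11), -0.18 to 0.81 (NDUFC1), -0.27 to 0.15 (COX8A), -0.30 to 0.018 (ATP5F1A), -0.67 to 0.010 (COX5A), -0.63 to 0.11 (NDUFS8), -0.69 to 0.073 (SDHB) and -0.54 to 0.16 (UQCRC1). ATP5F1B was at -0.11 under quantile normalization and -0.068 under median centring. NDUFB11 was at -0.036 under median centring and COX8A at 0.062 with array weights. The cause of these turns was not tested. As the mean over probe sets, NDUFB11 was at -0.022 and NDUFAF5 at -0.17, because that mean takes in their other probe sets, which were lower. Counted with complex I, also a choice made after seeing the data, NDUFA4 left medians of -0.54 for complex I and -0.31 for complex IV. With the replicate number as a block 0 members passed (smallest adjusted p = 0.407) and 8 had an unadjusted p under 0.05; same-numbered dogs are different animals whose deviations correlated at -0.12, 0.41, 0.022 and -0.013, so the numbers do not pair them. Signals near the floor limit NDUFC1, COX4I2 and COX6A2.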
